A study of Homo sapiens with 6 samples.

Results

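The CCN family comprises CCN1 to CCN6, and its members were taken as the rows of the count table that carry these 6 gene symbols. All 6 were present among the 46427 genes of the table. RNA was sequenced from Hs578T cells, a triple-negative breast cancer line, that had been transduced with a pSUPER retrovirus carrying either a control shRNA (shCTRL) or CCN3 shRNA #2 (shCCN3). Both stable lines were grown in the same serum-containing medium after puromycin selection, and 3 libraries were made from each. The knockdown rests on a single CCN3 shRNA in a single line per group. The series' design text calls the 3 samples of a group independent biological replicates. Whether they came from separate cultures, passages or extractions of the line is not stated, so the p-values measure the spread between these samples.

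CCN proteins are secreted, cysteine-rich matricellular proteins: they sit in the extracellular matrix and act on cells mainly through integrins and heparan sulfate proteoglycans rather than as structural matrix. The prototype contains an IGFBP-like domain, a von Willebrand factor type C repeat, a thrombospondin type I repeat and a C-terminal cystine knot, which CCN5 lacks. CCN1 (CYR61) and CCN2 (CTGF) are immediate-early genes and classic targets of YAP/TAZ with TEAD factors. CCN2 is known as a pro-fibrotic factor, which CCN3 (NOV) often opposes in fibrosis models, CCN4 (WISP1) and CCN5 (WISP2) were found as Wnt-inducible genes, and CCN6 (WISP3) is known for its loss in a skeletal disorder.

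Each library held between 56159110 and 68393177 counts, so that 3 counts corresponded to 0.0435 to 0.054 CPM, the level unit used here (counts-per-million, with library sizes scaled by TMM factors). The cells carried a mesenchymal profile, with VIM at 6617 CPM or more in all 6 libraries and EPCAM and CDH1 at or below 0.141 CPM. Of the other epithelial markers, KRT19 stayed at or below 0.198 CPM, but KRT8 was read at 13.5 to 21.3 CPM and KRT18 at 156 to 171 CPM in shCTRL and 212 to 263 CPM in shCCN3. The summed epithelial list (5 genes) moved from 174–192 to 226–278 CPM. The mesenchymal marker CDH2 moved up from 82–95 to 143–177 CPM and VIM moved down from 7661–7990 to 6617–7565 CPM, while FN1 and ZEB1 overlapped. The summed mesenchymal list (4 genes) went from 10265–10289 to 9874–10043 CPM. ESR1 stayed at or below 0.156 CPM and PGR between 2.66 and 4.56 CPM, whereas ERBB2 was read at 72.0 to 82.8 CPM. Of the leukocyte markers, CD3E had 0 counts throughout and PTPRC at most 13, while CD68, which non-leukocytes also express, ranged from 95.1 to 107 CPM in shCTRL and from 57.8 to 59.4 CPM in shCCN3. The summed leukocyte list (3 genes) therefore moved from 95.1–107 to 58.0–59.6 CPM. Of the endothelial markers, CDH5 had 0 counts throughout and VWF at most 7. PECAM1 was read at 3.02 to 4.34 CPM in shCTRL and at 3.16 to 3.72 CPM in shCCN3, which overlapped. The part of these marker shifts in the results was not tested. In such bulk RNA, fewer cells expressing a gene and less mRNA per cell cannot be told apart.

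Loss of CCN3 mRNA in shCCN3 cells was partial, CCN4 was lower as well, and CCN1 and CCN2 were higher. Of the 6 members, 4 passed the filter on low counts and all 4 had an adjusted p under 0.05, 2 higher and 2 lower. Of all 17419 tested genes 33.4% were called, 16.2% as higher and 17.3% as lower, so that a call by itself sets the members little apart. The sizes of the changes differed more. CCN2 had a larger log2 fold change than 99.2% of tested genes and CCN1 than 97.6%, whereas only 3.9% lay below CCN3 and 5.09% below CCN4.

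CCN3, the target of the shRNA, was read at 103, 102 and 98.1 CPM in the shCTRL libraries and at 47.4, 47.2 and 46.5 CPM in the shCCN3 libraries. Every knockdown library was below every control library. The fold change was 2.14 downward, a log2 fold change of -1.10 (SE 0.055, 95% interval -1.23 to -0.98, adjusted p = 1.34e-06 by edgeR's quasi-likelihood test). Between 2621 and 3270 CCN3 counts were thus left in each knockdown library. The 19-base target of the shRNA matched CCN3 transcripts without a mismatch. Its best ungapped placement on any transcript of the other members left 8 mismatches in CCN1, 8 in CCN2, and 7 each in CCN4, CCN5 and CCN6. The control sequence had at least 5 mismatches with every member. These counts take in all 19 bases and leave out shorter matches. Action of either shRNA on members other than its target was not tested.

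CCN1, an integrin-binding regulator of adhesion, angiogenesis and senescence, was the most abundant member in both lines. It stood at 189, 178 and 184 CPM in shCTRL and at 630, 600 and 612 CPM in shCCN3. The groups were far apart, with a gap many times the range within either group. CCN1 rose 3.34-fold (log2 fold change 1.74, SE 0.056, 95% interval 1.61 to 1.87, adjusted p = 9.44e-08 in the edgeR test).

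CCN2, a co-factor of TGF-β in connective tissue growth, showed the largest change of the family. Its level was 52.6, 52.0 and 47.8 CPM in shCTRL and 485, 439 and 472 CPM in shCCN3, again without overlap. The rise was 9.16-fold (log2 fold change 3.19, SE 0.070, 95% interval 3.04 to 3.35, adjusted p = 3.95e-08 in the edgeR test). It ranked 147 among 17419 tested genes by log2 fold change and 2 by p-value. An antisense RNA, CCN2-AS1, is annotated across the CCN2 locus, and since use of the strand in counting is not stated, its reads could not be told apart from those of CCN2.

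The CCN2 promoter is shown because TEAD-bound GGAATG motifs are the textbook route by which YAP/TAZ reach this gene. The sequence holds the 250 bases before the transcription start, chr6:131951373-131951622 on the minus strand of GRCh38.p14, from RefSeq. Capitals mark GGAATG and the TATA box TATAAA.
CCN2: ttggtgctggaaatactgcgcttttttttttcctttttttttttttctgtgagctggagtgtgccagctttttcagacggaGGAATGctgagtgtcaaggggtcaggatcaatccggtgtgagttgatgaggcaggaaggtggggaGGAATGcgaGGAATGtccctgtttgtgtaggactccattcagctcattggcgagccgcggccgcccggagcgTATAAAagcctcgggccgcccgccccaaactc
GGAATG occurred 3 times, at 169, 104 and 95 bases before the start and always on the sense strand, and TATAAA once at 32 bases before it. In windows of 300 bases that reach 50 bases past the start, searched on both strands, 14.0% of 27305 RefSeq promoters held GGAATG and 0.146% held at least 3 copies. TATAAA, searched on the sense strand, was in 7.71%. Neither the AP-1 motif TGANTCA, present in 7.76% of promoters, nor a CArG box, the SRF site present in 1.29%, was in the CCN2 window. The searched motifs do not overlap each other in it. The promoter of CCN6 held 2 copies of GGAATG, as many as 1.37% of promoters or more, and no TATAAA. Those of CCN1, CCN3, CCN4 and CCN5 were not in the promoter table.

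The same calls were counted over all genes by their copies of GGAATG. Of 111 tested genes with at least 2 copies, 18.9% were called higher in shCCN3, beside 17.5% of 1451 genes with at least 1 and 16.5% of all 12597 tested genes with a promoter sequence. Their median log2 fold changes were 0.06, 0.01 and 0.01. Among the 9 tested genes with at least 3 copies, CCN2 included, 2 were called higher and 1 lower. No test was made of these shares.

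CCN4, a Wnt-responsive member described in tumour stroma and bone, was expressed at a low level. It was read at 2.95, 2.26 and 2.73 CPM in shCTRL and at 1.33, 1.13 and 1.61 CPM in shCCN3, from 142 to 203 and from 63 to 103 counts. All 3 knockdown libraries lay below the controls, but the spread was wider relative to the level than for the abundant members. CCN4 fell 1.94-fold (log2 fold change -0.96, SE 0.187, 95% interval -1.38 to -0.54, adjusted p = 0.00367 in the edgeR test). In counts, the ratio of CCN4 to CCN3 was 0.0288, 0.0222 and 0.0278 in shCTRL and 0.0281, 0.0240 and 0.0346 in shCCN3. These ratios overlapped, and their log2 means differed by 0.13 (exact permutation test, two-sided, p = 0.5, where 0.1 is the smallest possible).

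CCN5 and CCN6 were barely read. CCN5, the member without the cystine knot and an inhibitor of smooth muscle growth, had 2 counts in shCCN3 replicate 1 and 0 in the other 5 libraries. CCN6 had 0 counts in all 6 libraries, which allows up to 3 counts per library, or 0.0435 to 0.054 CPM. Neither passed the filter on low counts, and no fold change is given. Such limits cover counting error only.

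For each of the 4 tested members an exact permutation test over the 6 libraries gave a two-sided p of 0.1, the smallest that 3 against 3 libraries allow.

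**Figure D1:**
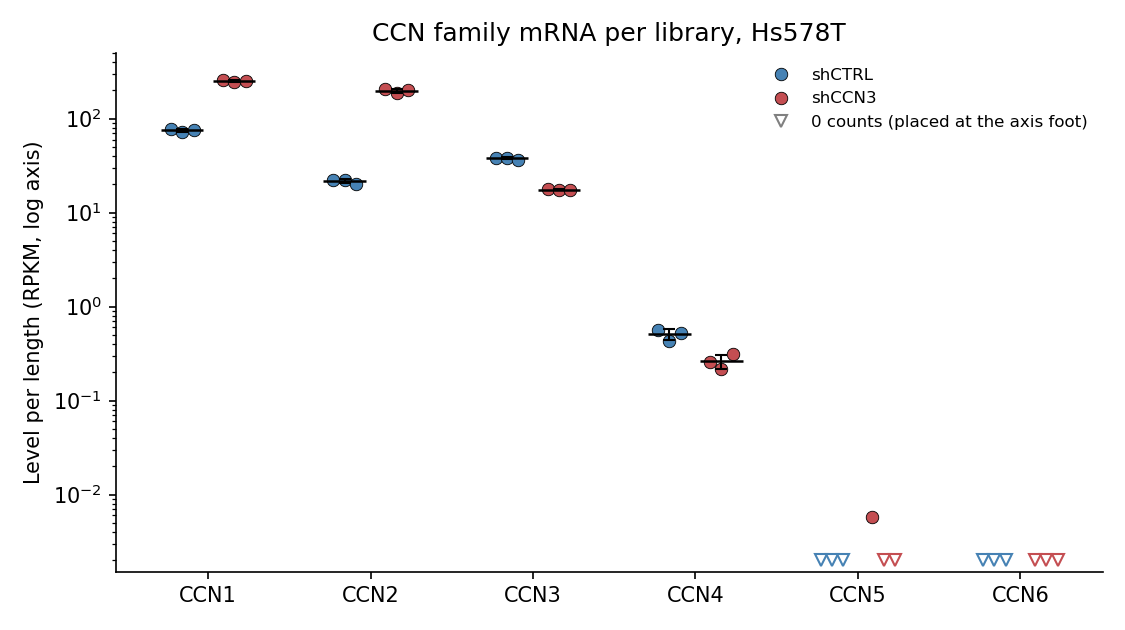
Level per length of each CCN gene in every library, in RPKM (CPM per kilobase of merged exons) on a log axis, with the mean (bar) and SD of 3 libraries per group; open triangles at the foot of the axis are libraries with 0 counts. CCN1 and CCN2 lie higher in shCCN3, CCN3 and CCN4 lower, and CCN5 appears in 1 library only.

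Levels of different genes were compared per length, as CPM divided by the length of the merged exons in kilobases (RPKM). In shCTRL cells the order was CCN1 at 74.9 ± 2.26 RPKM, CCN3 at 37.7 ± 0.908, CCN2 at 21.7 ± 1.11 and CCN4 at 0.510 ± 0.068 (SD, n = 3). In shCCN3 cells it was CCN1 at 250.19 ± 6.16 RPKM, CCN2 at 198.88 ± 10.1, CCN3 at 17.6 ± 0.175 and CCN4 at 0.262 ± 0.046 (SD, n = 3). CCN2 and CCN3 thus exchanged places, and in both groups the neighbours in this order were separated in all 3 libraries. CCN5 and CCN6 cannot be ordered. Among 14932 tested genes with a known length, the rank by RPKM moved from 540 to 108 for CCN1, from 2165 to 158 for CCN2, from 1242 to 2642 for CCN3 and from 12102 to 12953 for CCN4.

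The exchange was clearest in the ratio of CCN3 to CCN2 per length, which was 1.74 ± 0.048 in shCTRL and 0.0886 ± 0.00465 in shCCN3 (SD, n = 3). On the log2 scale the difference was -4.30, the sum of the fall of CCN3 and the rise of CCN2. CCN3 reached 0.504 ± 0.018 of the CCN1 level in shCTRL and 0.0703 ± 0.00158 of it in shCCN3 (SD, n = 3). CCN2 moved up to 0.795 ± 0.024 of the CCN1 level from 0.290 ± 0.017.

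The family as a whole gave more mRNA after CCN3 knockdown. Its summed level was 347.56, 334.35 and 332.43 CPM in shCTRL and 1164, 1087.8 and 1131.6 CPM in shCCN3. The groups did not overlap, and the log2 sums differed by 1.74 (exact permutation test, two-sided, p = 0.1). Of all counts in a library, the family took 0.0336% in shCTRL and 0.113% in shCCN3. CCN1 gained 430.44 CPM and CCN2 gained 414.38 CPM, while CCN3 dropped by 53.8 CPM and CCN4 dropped by 1.29 CPM. The 2 rising members therefore added almost the same CPM, although CCN2 began from a lower level.

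The share of each member in the family counts followed from this. CCN1 contributed 54.5, 53.3 and 55.3% in shCTRL and 54.2, 55.2 and 54.1% in shCCN3, which overlapped (means 54.4 ± 0.991% and 54.5 ± 0.629%, SD, n = 3, exact permutation test, two-sided, p = 1). Weighted by length, however, the CCN1 share was 55.5 ± 1.03% and 53.6 ± 0.641% (SD, n = 3) without overlap, so that the sign of this small difference depends on the scale. CCN2 moved from 15.1, 15.5 and 14.4% to 41.7, 40.4 and 41.7%, a gain of 26.2 percentage points. CCN3 moved from 29.5, 30.5 and 29.5% to 4.07, 4.33 and 4.11%, which left it at 4.17 ± 0.141% (SD, n = 3). The CCN3 share fell by 25.7 percentage points. Shares add up to a fixed total, so with the CCN1 share nearly flat this fall had to be close to the gain of CCN2. In CPM the 2 changes were unlike, a drop of 53.8 for CCN3 and a gain of 414.38 for CCN2.

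CCN4 held 0.850, 0.676 and 0.820% of the family counts in shCTRL and 0.115, 0.104 and 0.142% in shCCN3. In shCTRL replicate 2, the control with the lowest share, the 95% Wilson interval was 0.574 to 0.796%. In shCCN3 replicate 3, with the highest share of its group, it was 0.117 to 0.172%, so counting error was small beside the change. The shares of CCN2, CCN3 and CCN4 were each without overlap between the groups (exact permutation test, two-sided, p = 0.1 for each). A share also depends on the other members: as the family sum rose, the CCN3 and CCN4 shares dropped further than the levels of these genes did.

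**Figure D2:**
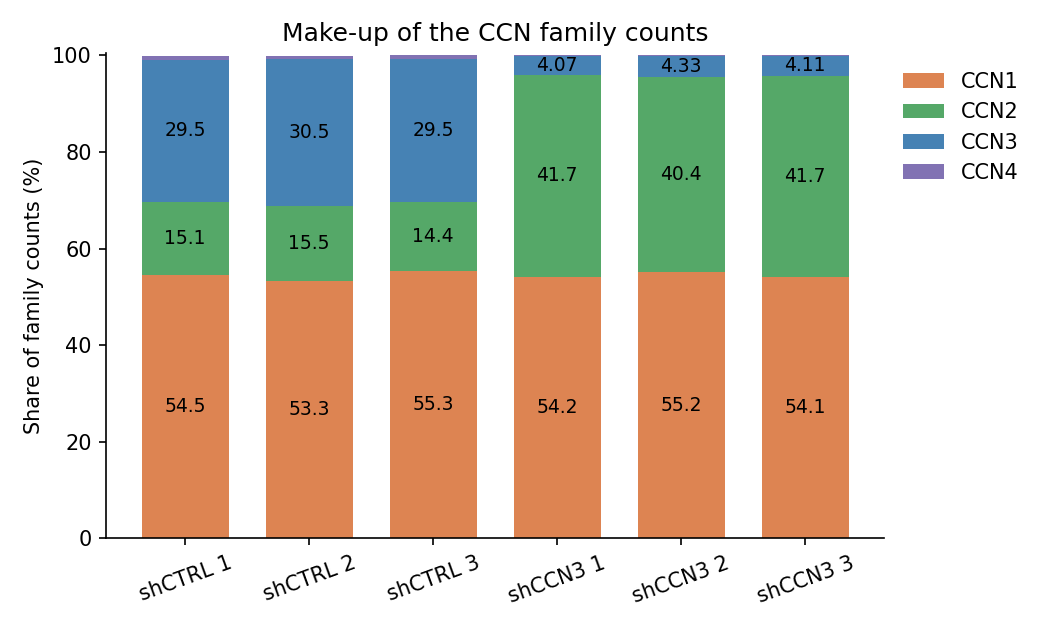
Share of the summed counts of the CCN family held by each member in each of the 6 libraries, in percent; CCN5 and CCN6 are too small to draw. The CCN1 part is 53.3 to 55.3% in every library, the CCN2 part is 14.4 to 15.5% in shCTRL and 40.4 to 41.7% in shCCN3, and the CCN3 part shrinks to 4.07 to 4.33%.

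Ratios between members need no scaling to library size. The ratio of CCN2 to CCN1 counts was 0.278, 0.292 and 0.260 in shCTRL and 0.769, 0.731 and 0.771 in shCCN3. On the log2 scale the means differed by 1.45 (exact permutation test, two-sided, p = 0.1), which is how much further CCN2 rose than CCN1. CCN1 and CCN2 together outnumbered CCN3 by 2.36, 2.26 and 2.36 to 1 in shCTRL and by 23.5, 22.0 and 23.3 to 1 in shCCN3. Knockdown libraries were closely alike in both ratios.

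**Figure D3:**
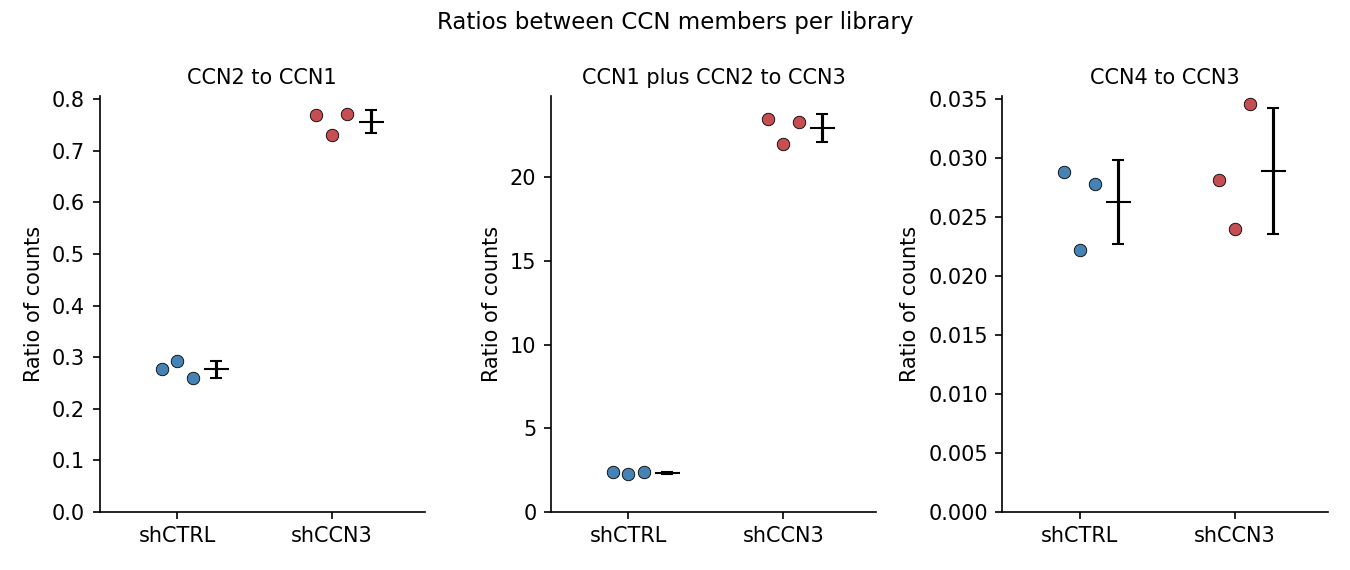
Ratios of counts between CCN members in each library (points), with the mean and SD of 3 libraries per group beside them; each axis starts at 0. CCN2 to CCN1 and CCN1 plus CCN2 to CCN3 separate the groups, whereas CCN4 to CCN3 overlaps (0.0222 to 0.0288 in shCTRL, 0.0240 to 0.0346 in shCCN3).

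The 6 genes share a 5-exon principal transcript and encode 381 (CCN1), 349 (CCN2), 357 (CCN3), 367 (CCN4), 250 (CCN5) and 372 (CCN6) codons. On GRCh38 CCN1 lies on chromosome 1 from 85580761 to 85583950 and CCN5 on chromosome 20 from 44714861 to 44727811. CCN2 and CCN6 share chromosome 6, from 131948176 to 131951372 and from 112052813 to 112069686. CCN3 and CCN4 share chromosome 8, from 119416446 to 119424434 and from 133191039 to 133231690. The lncRNAs that overlap CCN4 and CCN5, LOC102723635 and KCNK15-AS1, had 0 counts in every library.

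The chromosomal surroundings of each member were described next. Neighbours were the 12 tested genes before and the 12 after each member, 24 in all. They spanned unlike distances, from 1.82 Mb around CCN5 to 13.5 Mb around CCN4, with 7.21 Mb around CCN2. Their median log2 fold change was 0.05 around CCN1, 0.36 around CCN2, 0.18 around CCN3, 0.09 around CCN4, 0.10 around CCN5 and 0.05 around CCN6. Around CCN2, 18 of 24 neighbours were higher and 11 of these were called, beside 16.2% called higher over all tested genes. The neighbours called higher numbered 5 around CCN1, 6 around CCN3, 5 around CCN4, 7 around CCN5 and 7 around CCN6. Those called lower numbered 3 around CCN1, 1 around CCN2, 2 around CCN3, 4 around CCN4, 2 around CCN5 and 2 around CCN6. Over all tested genes 17.3% were called lower. The 890 other tested genes of chromosome 6 had a median of 0.34, against 0.01 for all tested genes. CCN2 with 3.19 was above the highest of its neighbours, which had 1.01. CCN1 with 1.74 was likewise above its highest neighbour, with 0.79, on a chromosome with a median of -0.13. The part of the chromosome 6 shift in the change of CCN2 was not tested. The chromosome of CCN3 and CCN4 had a median of 0.11, and 2 neighbours were lower than CCN3, down to -1.54, and 1 was lower than CCN4, at -1.48. The osteoprotegerin gene TNFRSF11B, which lies the second among tested genes before CCN3, had a log2 fold change of -1.54, while MAL2 and ENPP2 on either side of CCN3 had 0.30 and -0.25 and were not called.

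**Figure D4:**
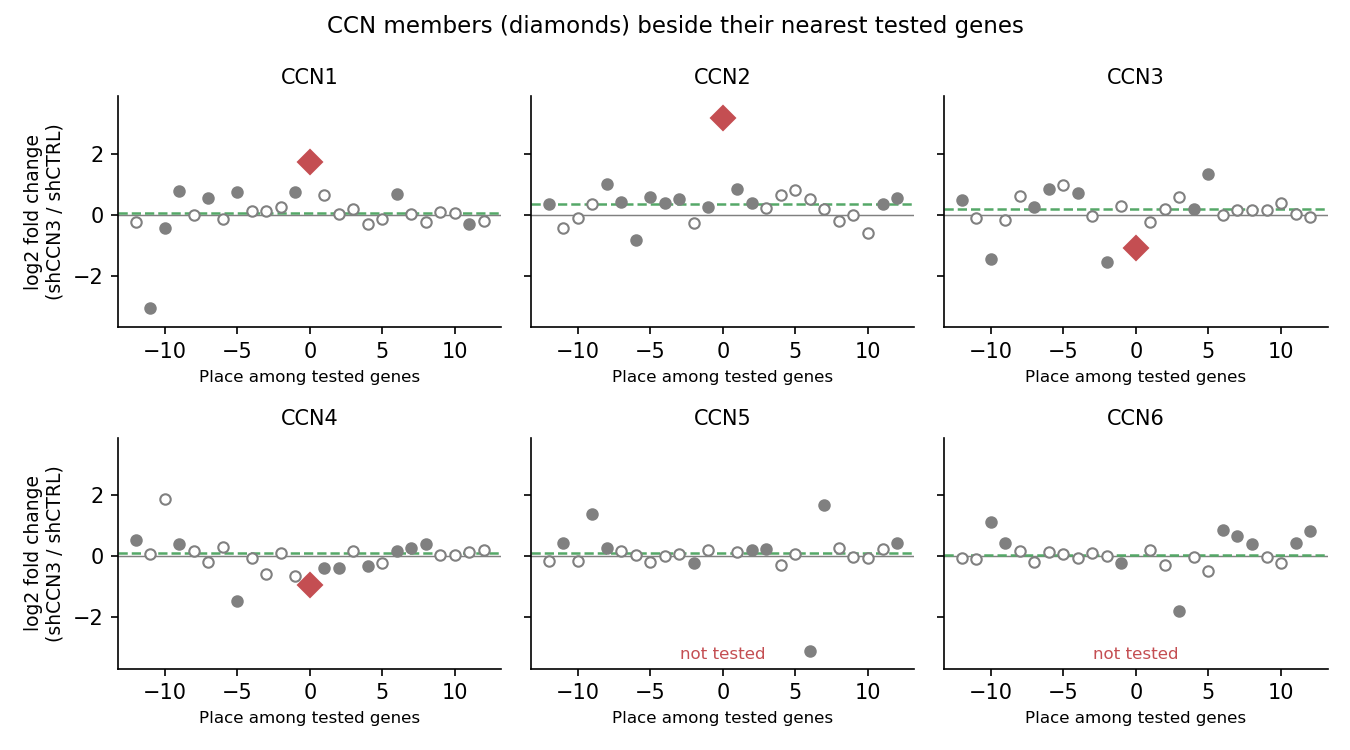
Log2 fold change (shCCN3 over shCTRL) of each CCN member (diamond, at place 0) and of the 12 tested genes before and 12 after it in chromosome order (circles, filled where the adjusted p is under 0.05); the dashed line is the neighbours' median. CCN1 and CCN2 lie above and CCN3 below the bulk of their neighbours, and CCN5 and CCN6 were not tested.

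Of the genes whose products CCN proteins bind on the cell surface, 11 of 15 were tested. Of these, 2 were called higher and 3 lower, with a median log2 fold change of -0.06. The called genes made up 45.5% of those tested, beside 33.4% over all tested genes. ITGAV, the αv integrin chain, rose from 33.7 ± 4.55 to 58.8 ± 9.15 CPM (SD, n = 3, log2 fold change 0.80). IGF2R was higher by 0.38 with an adjusted p of 0.0487 in the edgeR test, and its libraries overlapped. The 5 receptor calls went to 4 in 8 of the 13 alternative fits and to 7 without shCCN3 replicate 2. ITGA6, the α6 integrin chain, fell from 96.4 ± 10.9 to 59.1 ± 10.0 CPM (SD, n = 3, log2 fold change -0.71), and the endocytic receptor LRP1 from 209 ± 8.26 to 139 ± 24.0 CPM (-0.59). The other lower gene, named after its values were seen, was ITGA5 (-0.29). The shared chain ITGB1 (0.24), ITGB3 (-0.10), ITGB5 (-0.06) and the heparan sulfate proteoglycan SDC4 (-0.01) were not called.

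Among soluble and matrix partners, 12 of 14 were tested, 4 were called higher and 2 lower, with a median of 0.10. For comparison, 33.4% of all tested genes were called, 16.2% as higher and 17.3% as lower. GJA1, the gap junction protein connexin 43, rose from 122 ± 9.96 to 228 ± 22.1 CPM and FGF2 from 33.1 ± 2.29 to 58.3 ± 5.58 CPM (SD, n = 3 each). TNFRSF11B fell from 8.42 ± 0.867 to 2.89 ± 0.754 CPM and BMP2 from 14.6 ± 0.677 to 9.50 ± 0.746 CPM (SD, n = 3 each). VEGFA (0.41) and FBLN1 (0.48), named after their values were seen, were the other higher genes. TGFB1, a major inducer of CCN2, had a log2 fold change of 0.17 and was not called (adjusted p = 0.0735 in the edgeR test).

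Of proteases known to cut CCN proteins, 7 of 12 were tested, with 1 called higher, 3 lower and a median of -0.12. These calls were 57.1% of the tested proteases, beside 33.4% over all tested genes. MMP2, gelatinase A, fell from 527 ± 19.7 to 189 ± 5.91 CPM (SD, n = 3, log2 fold change -1.48, adjusted p = 3.25e-07 in the edgeR test). MMP14, the membrane-type activator of MMP2, fell by 0.28 on the log2 scale. Both remaining calls, named after their values were seen, were near the floor: KLK14 had 10 to 21 counts in shCTRL and 0 to 6 in shCCN3. MMP13, collagenase 3, had 0 counts in every shCTRL library and 20 to 29 in shCCN3, at least 8.64-fold higher against a floor of 3 counts per library.

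Of other genes with an IGFBP domain, 10 of 14 were tested, 5 were called lower and 2 higher, with a median of -0.65. The called share was 70.0% of the tested genes of this list, beside 33.4% over all tested genes. The serine protease HTRA1 fell from 247 ± 10.6 to 69.2 ± 4.95 CPM (SD, n = 3, log2 fold change -1.83). IGFBP3, the main carrier of circulating IGF, fell from 757 ± 13.9 to 339 ± 4.34 CPM (SD, n = 3, log2 fold change -1.16), and KAZALD1 had -0.88. CRIM1, a BMP antagonist, was higher by 0.83. IGFBP7 (0.43), HTRA3 (-0.76) and IGFBPL1 (-1.50, under 1 CPM), named after their values were seen, made up the rest of the calls.

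Among matricellular genes outside the family, 8 of 11 were tested, 5 were called higher and 1 lower, with a median of 0.44. Called genes were 75.0% of the tested ones, beside 33.4% over all tested genes. TNC, tenascin C, fell the furthest of these, from 50.4 ± 2.90 to 4.34 ± 0.416 CPM (SD, n = 3, log2 fold change -3.54, adjusted p = 4.22e-08 in the edgeR test). THBS1, thrombospondin 1, rose from 468 ± 56.1 to 812 ± 136 CPM (SD, n = 3, log2 fold change 0.79). POSTN, periostin, rose by 1.98 from a low level of 0.314 ± 0.110 CPM (SD, n = 3), and FBLN5 had 0.77. SMOC1 (0.58) and TGFBI (0.29), named after their values were seen, were also higher, while the abundant SPARC (-0.04) was not called.

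Of 20 regulators of CCN transcription, all tested, 6 were called higher and 1 lower, with a median of 0.15. These 35.0% are close to the 33.4% called over all tested genes. SRF, which drives immediate-early genes, rose from 38.0 ± 2.53 to 73.4 ± 2.95 CPM and its co-activator MRTFA from 46.6 ± 0.731 to 80.8 ± 2.93 CPM (SD, n = 3 each), log2 fold changes of 0.95 and 0.79. EGR1, itself an immediate-early gene, had 1.30 and ETS1 had 0.88. FOS (-0.17) and MRTFB (0.14), on the same list, were not called. Of the YAP/TAZ and TEAD genes, YAP1 was higher by 0.36 (adjusted p = 0.0277 in the edgeR test) with overlapping libraries, WWTR1, which encodes TAZ, had -0.20 (adjusted p = 0.0709), and TEAD1 to TEAD4 had between 0.03 and 0.17 and were not called. SMAD7 (0.23) was higher and JUN (-0.33) lower, both named after their values were seen. Without shCCN3 replicate 2, 12 of these 20 genes were called in place of 7, while calls over all genes also went up, from 5825 to 7229.

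**Figure D5:**
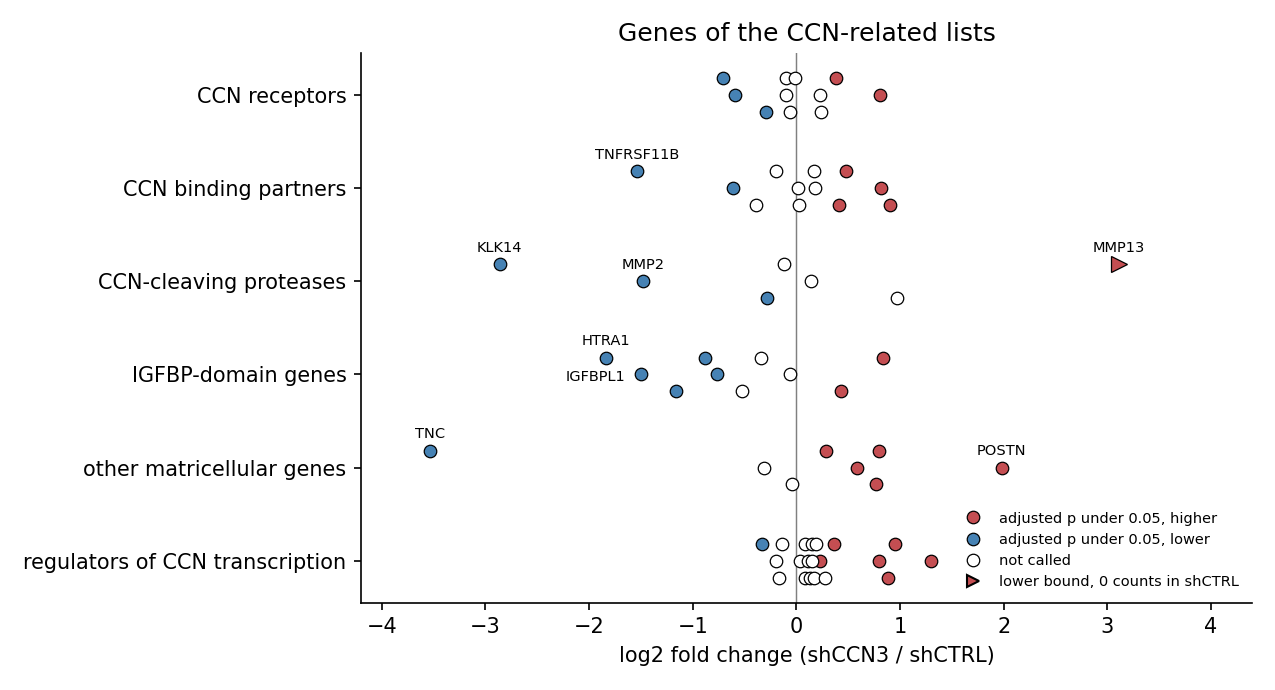
Log2 fold change (shCCN3 over shCTRL) of the tested genes of 6 CCN-related lists, 1 point per gene, spread vertically for legibility, with colour marking an adjusted p under 0.05 and names given for the largest changes. The triangle is MMP13 at its lower bound of 8.64-fold, and TNC (-3.54) lies lowest.

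Among 13185 genes with at least 1 CPM in both groups, those with the profile over the 6 libraries nearest to a member were listed. The measure was the Euclidean distance on log2 CPM, with 0.5 CPM added first, centred on the shCTRL mean. IFIT3 (distance 0.114), ICAM1 (0.141) and IFIT1 (0.141) lay nearest to CCN1, with log2 fold changes of 1.74, 1.84 and 1.74. IFIT1 and IFIT3 encode interferon-induced proteins and ICAM1 an adhesion molecule. CCN2 had more distant neighbours, with RNF150 (0.273), ABI3BP (0.373) and DNAH11 (0.633), all from below 2 CPM in shCTRL. Their log2 fold changes were 3.62, 3.77 and 3.36, beside 3.19 for CCN2. At such low levels the added 0.5 CPM affects the distance and the order. ANKH (0.088), SEMA7A (0.110) and CHST2 (0.115) were nearest to CCN3. With 2 groups, such likeness mostly reflects the size of the difference between them.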

How the data were processed

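The authors prepared TruSeq Stranded mRNA libraries and deposited raw read counts per gene, without normalization, for 6 libraries. The submitters' processing notes list bcl2fastq 2.20.0, Trimmomatic, HISAT2 2.1.0, StringTie 2.1.3d, DESeq2 and GRCh38 without a role or order. The annotation used for counting, and whether counting used the strand, are not given in the sources used here. The 6 members and all gene lists were chosen with earlier results of these data known, and 1 gene was removed from the lists and is not reported here.

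Counts were fitted with edgeR 4.0.16 (R 4.3.3): TMM normalization, filterByExpr by group, quasi-likelihood test, Benjamini-Hochberg adjustment over 17419 genes, and calls at an adjusted p under 0.05. CPM and RPKM used TMM-scaled totals, with lengths from GENCODE release 29, which gave a length for 85.7% of tested genes. Positions came from RefSeq, matched for 44694 Gene IDs. Exact permutation tests used SciPy 1.17.1. Scripts were tested on simulated data. Within a group, libraries differed by more than counting noise (chi-square per degree of freedom 7.04 to 45.5). The pairs within shCTRL had 7.04 to 22.2. Within shCCN3, replicate 2 had 37.3 against replicate 1 and 45.5 against replicate 3, while replicates 1 and 3 had 9.86. Besides the members and marker genes, the rule named up to 4 called genes per list with the largest change and at least 1 CPM in a group, and the 3 genes with the profile most like CCN1, CCN2 and CCN3.

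Alternatives were DESeq2 size factors, upper-quartile normalization, the DESeq2 1.42.0 and limma-voom (limma 3.58.1) tests, other count filters (any count above 0, or a minimum of 10 in each library), a replicate block, each library left out, plain library totals for the family sum, and gene or longest-transcript length for shares.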

Additional observations from a re-analysis of the deposited data

How the results depend on the processing

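Each of the 4 tested members kept its direction and its call under all 13 alternative fits, with log2 fold changes from 1.72 to 1.76 for CCN1, 3.15 to 3.24 for CCN2, -1.12 to -1.09 for CCN3 and -1.10 to -0.84 for CCN4. The difference in the CCN1 share, 0.116 percentage points in counts, reversed to -1.93 per kilobase of gene length and -1.13 per kilobase of the longest transcript, and ranged from -0.41 to 0.58 with a library left out, being negative without shCTRL replicate 2 (-0.408) or shCCN3 replicate 2 (-0.246). By the same lengths the CCN3 share changed by -24.22 and -24.23 points (-25.7 in counts) and the CCN4 share by -0.322 and -0.304 points (-0.662 in counts), since the weights follow the lengths. Protease calls went from 4 to 2 when at least 10 counts in every sample were required, which leaves fewer genes tested. Regulator calls went from 7 to 12 without shCCN3 replicate 2, when calls over all genes went from 5825 to 7229, and the cause was not tested. The median around CCN4 went from 0.09 to -0.36 without a filter on low counts and to -0.06 without shCCN3 replicate 2. With a library left out, the neighbour medians ranged from 0.05 to 0.09 around CCN1, 0.31 to 0.38 around CCN2, 0.17 to 0.22 around CCN3, -0.06 to 0.12 around CCN4, 0.06 to 0.18 around CCN5 and -0.02 to 0.16 around CCN6. They moved by over 1.5 times around CCN1 (without shCTRL replicate 3 or shCCN3 replicate 1), CCN4 (without any 1 of the shCCN3 replicates), CCN5 (without shCTRL replicate 3 or shCCN3 replicate 3) and CCN6 (without any 1 library other than shCCN3 replicate 2).

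Deviations of same-numbered libraries correlated at 0.149, -0.0726 and -0.259 for replicates 1, 2 and 3. With deviations taken from means of 3 libraries, these values cannot tell whether same-numbered libraries shared a culture or a batch. With the replicate block 4887 genes were called in place of 5825, CCN4 stood at -0.97 on the log2 scale (adjusted p = 0.00456, edgeR) and the block changed no call of a CCN member. CCN5 and CCN6 had too few counts to be tested.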
